A study of Homo sapiens with 6 samples.

Results

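The 109 genes described here lie on the short arm of human chromosome 10 (10p), of 12703 genes in the count table. They are the genes on chromosome 10 that start below 39.8 Mb in hg38, without ITGB1, NRP1, VIM and ZEB1. The arm was selected on a shared rise of its genes in these same 6 libraries, so the rise itself is a description and no test of it is given. The question asked of the data was where along the arm the rise ends.

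PC3 is an established prostate cancer cell line from a bone metastasis. The overexpressing group (GCNT1 OE) was 3 PC3 lines into which a lentivirus had brought GCNT1, a glycosyltransferase that branches O-linked glycans, and the control group was 3 PC3 lines that had received a Lenti-ORF control virus. All 6 lines therefore received a lentivirus. The labels call the 3 lines of a group biological replicates, and whether each came from a separate transduction is not stated, so the errors given here measure the spread between these lines only. Each library held 11392213 to 13825704 reads counted on genes. GCNT1 itself had 9, 13 and 8 reads in control libraries 1 to 3 and 13, 16 and 35 in overexpressing libraries 1 to 3. This was 0.98 higher on the log2 scale with a standard error of 0.37. Overexpressing library 1 had as many GCNT1 reads as control library 2, and overexpressing library 3 had the most. The epithelial keratins KRT8 and KRT18 were at 188 to 261 CPM (read counts scaled to a common library size, with library totals corrected by the TMM method) in every library, whereas EPCAM (4.31 to 6.51 CPM) and CDH1 (0.992 to 4.45 CPM, lower with overexpression) were low. The luminal prostate marker TMPRSS2 was at 1.63 to 4.85 CPM, and KLK3 and KLK2 were not analysed here. Of the markers of other cell types PECAM1 was at 1.43 to 5.10 CPM and ACTA2 at 1.99 to 4.15 CPM, with log2 fold changes of 1.31 and 0.50, and PTPRC and DES were not analysed here. Their part in the results was not tested.

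The genes of a chromosome arm are neighbours by position and need not share a pathway. Neighbouring genes can still change together, because they share the copies of the DNA they lie on and, over shorter distances, chromatin. The short arm of chromosome 10 holds in its outer part genes of ribosome assembly (GTPBP4), Rab recycling (GDI2), glycolytic control (PFKFB3), splicing (RBM17, PRPF18), ATP synthesis (ATP5F1C), replication (MCM10), autophagy (OPTN) and endosomal sorting (STAM), and further in the Polycomb gene BMI1, the kinesin heavy chain KIF5B, the Wnt receptor FZD8 and a group of zinc finger genes beside the centromere.

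The rise was not shared by the whole arm. It was found in the 58 genes from the tip (ZMYND11) to STAM, called distal here, and was much smaller in the 51 genes from NSUN6 to the start limit, called proximal here. The median log2 fold change was 0.73 over the distal genes, a 1.66-fold rise, 0.25 over the proximal genes, 0.06 over the 387 genes of the long arm (10q) and 0.00 over all genes. The middle 50% of distal genes lay between 0.42 and 0.97. The label of a shared rise on 10p therefore holds for the outer part of the arm, up to a start of 17.6 Mb. Because the cultures were sequenced whole, a higher level in every cell and a larger share of cells with a high level cannot be told apart.

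**Figure D1:**
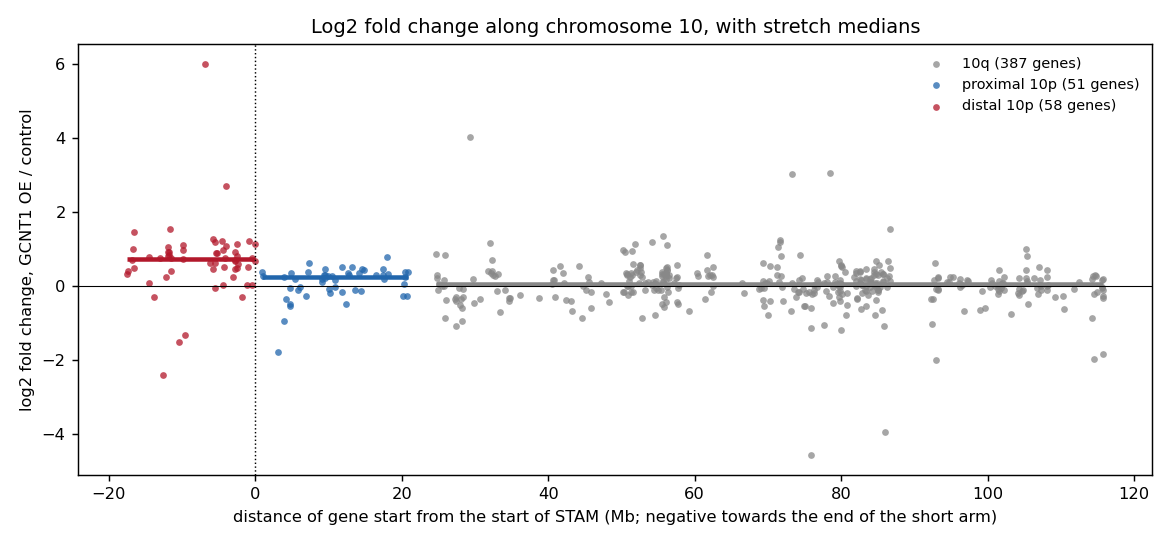
Each point is a gene of chromosome 10, placed by the distance of its start from the start of STAM in Mb (x axis) and by its log2 fold change with GCNT1 overexpression (y axis). Thick lines are the medians of the 58 distal 10p genes (0.73), the 51 proximal 10p genes (0.25) and the 387 genes of 10q (0.06), and the level drops at the dotted line.

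To place the end, all 496 chromosome 10 genes considered were split into 2 stretches so that the summed distance of the log2 fold changes from the stretch medians was smallest. The best split fell between STAM, which starts at 17644151, and NSUN6, which starts at 18545561, a gap of 901 kb between gene starts. The split lowered the summed distance from 206.9 to 190.5 log2 units. Ending the first stretch 1 gene later, at NSUN6, cost only 0.04 units more, and ending it at HACD1 or FAM171A1 cost 0.50 and 0.70 units more. A split at the last gene of the short arm, LINC00999, cost 6.69 units more. The same end was found when 10p alone was split into 2, and when chromosome 10 was split into 3 or 4 stretches, whereas with 10p alone split into 3 the first stretch ended at NSUN6, with 59 genes.

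The same split was then made for each of the 9 pairs of 1 overexpressing and 1 control library. The last raised gene was STAM in 5 pairs and NSUN6 in 2, and over all 9 pairs the estimated end ran from 17.6 to 18.7 Mb, with a standard deviation of 0.507 Mb. All 4 pairs that ended later used control library 2 or 3. Squared in place of absolute distances moved the end to NSUN6. With genes under a mean of 5 CPM left out, the end moved towards the tip, to FAM171A1 at 15.2 Mb. Over these settings the best split therefore fell between 15.2 and 18.7 Mb, which is more than 20 Mb from the start limit of the arm. This range is not an interval of error. With all 6 libraries an end at NEBL, which starts at 20.78 Mb, cost 0.90 units more than the best split.

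**Figure D2:**
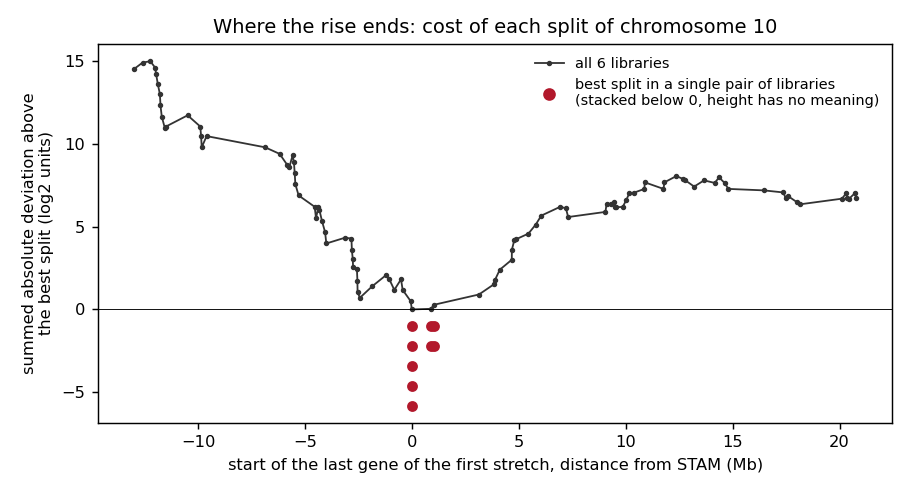
The line gives, for each possible last gene of the raised stretch, the summed absolute deviation above that of the best split in log2 units (y axis) against the distance of that gene's start from STAM in Mb (x axis). It is lowest at STAM and 0.04 higher at NSUN6. The red points, stacked below 0, mark the best split in each of the 9 pairs of single libraries, 5 of them at STAM.

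The bases upstream of STAM, the last gene before the end, are shown first, followed by those of the distal genes with the largest rise and the largest fall among members with an entry in RefSeq's table (GRCh38.p14). Capitals mark a TATA box, spelled TATAAA. They also mark a GC box, spelled GGGCGG, and the pentamer CCAAT. All were searched on both strands and do not overlap. Each stretch is read along its gene, 5′ to 3′, and holds no base of an exon annotated in GENCODE 44. STAM, a subunit of the complex that sorts ubiquitinated receptors on endosomes, lies on the plus strand and its stretch is chr10:17643901-17644150. FRMD4A, a scaffold protein of cell junctions, is on the minus strand (chr10:14008551-14008800), and the start used by RefSeq's table lies within the longer span of the gene. AKR1C3, the aldo-keto reductase that makes testosterone from androstenedione, is on the plus strand (chr10:5048531-5048780).
STAM: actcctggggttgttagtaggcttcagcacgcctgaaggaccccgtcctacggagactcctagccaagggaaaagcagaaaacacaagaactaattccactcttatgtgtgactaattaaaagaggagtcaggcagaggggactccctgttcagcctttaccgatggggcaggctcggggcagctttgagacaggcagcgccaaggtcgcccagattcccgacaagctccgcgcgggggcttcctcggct
FRMD4A: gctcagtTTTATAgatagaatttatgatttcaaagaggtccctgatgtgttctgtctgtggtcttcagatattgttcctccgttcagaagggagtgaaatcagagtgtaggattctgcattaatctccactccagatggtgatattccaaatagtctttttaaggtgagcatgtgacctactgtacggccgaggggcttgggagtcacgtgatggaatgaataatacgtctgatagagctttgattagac
AKR1C3: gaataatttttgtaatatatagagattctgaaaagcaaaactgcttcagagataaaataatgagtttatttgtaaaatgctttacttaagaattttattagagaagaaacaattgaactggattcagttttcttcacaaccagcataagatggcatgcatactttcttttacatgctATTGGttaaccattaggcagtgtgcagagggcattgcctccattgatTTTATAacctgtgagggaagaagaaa

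The stretch of STAM holds none of the 3 motifs, while those of FRMD4A and AKR1C3 each hold a TATA box on the other strand and that of AKR1C3 a CCAAT box as well. Over the 56 distal genes with an entry, 39 of the 250-base upstream stretches held a GC box (69.6%), against 67.7% of the genes of the count table and 42.2% of all RefSeq entries. A CCAAT box was present in 41.1% of the distal stretches and in 35.3% of those of the count table, and a TATA box in 5.36% and 5.39%. The median GC content was 67.4% in distal genes and 65.2% in the count table. In the 43 proximal genes with an entry, a GC box was present in 58.1%, a CCAAT box in 27.9% and a TATA box in 2.33%. None of these differences was tested.

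The reads of the distal genes made up 0.168%, 0.168% and 0.165% of the counted reads in control libraries 1 to 3 and 0.259%, 0.265% and 0.263% in overexpressing libraries 1 to 3. The overexpressing libraries were all above the controls and lay close together, and the mean share was 1.57-fold higher. For the proximal genes the shares were 0.311%, 0.302% and 0.291% against 0.328%, 0.355% and 0.347%, a 1.14-fold higher mean. For 10q the mean share was 1.06-fold higher. These shares are of raw counts, without TMM scaling.

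The 3 overexpressing lines showed the rise alike. Against the mean of the controls, the median log2 ratio over the distal genes was 0.71, 0.75 and 0.70 in overexpressing libraries 1 to 3. Each control library set against the mean of the other controls gave -0.02, 0.01 and 0.02. The proximal medians were 0.16, 0.30 and 0.22 in the overexpressing libraries and 0.05, 0.02 and -0.08 in the controls, so that the proximal shift was smaller and varied more between lines. Over the 9 pairs of libraries the distal median ran from 0.68 to 0.76 and the proximal median from 0.13 to 0.29. The border between the distal and proximal genes was placed on these same libraries, so the distance between the medians is fixed by the choice, and the pairs share libraries.

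**Figure D3:**
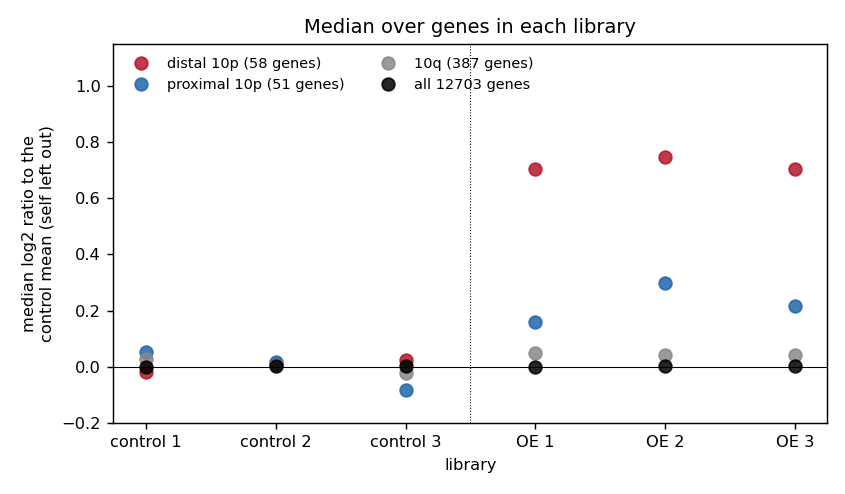
Each point is the median log2 ratio over a group of genes in 1 library (x axis), taken against the mean of the control libraries other than itself (y axis, log2 units). In the 3 overexpressing libraries the distal 10p genes sit between 0.70 and 0.75, above the proximal genes (0.16 to 0.30), 10q and all genes, and in the controls every group is near 0.

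Of the 58 distal genes, 47 were higher at an adjusted p of 0.05 (edgeR, quasi-likelihood test, Benjamini-Hochberg over all genes), which is 81.0%, where 28.3% of all genes were, and 37 of these are referred to as called higher, with a log2 fold change over 0.58 as well (63.8%, against 8.28% of all genes). Every overexpressing library was above every control library in 48 distal genes, against 30.9% of all genes. Only 3 distal genes were called lower, where 11.1% of all genes were. Of the 51 proximal genes, 25 were higher at the adjusted p (49.0%), a share above the 28.3% of all genes, while 2 were called higher (3.92%), a share below the 8.28% of all genes. On 10q, 116 of 387 genes were higher at the adjusted p and 29 were called higher (7.49%), both close to the background. Since the arm was selected on this comparison, nothing more is read from the counts of its own genes.

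In windows of 10 consecutive genes from the tip, the median log2 fold change was 0.59, 0.81, 0.67, 0.88 and 0.68 in the first 5 windows, down to FAM171A1. It was 0.45 in the next window, which starts at MINDY3 and spans the end, and -0.23 in the one after it, from NEBL to OTUD1. The last 4 windows, from KIAA1217 to the start limit, had medians of 0.26, 0.06, 0.32 and 0.25. When 10p alone was split into 3 stretches, 13 genes up to ARHGAP21 formed a stretch of their own with a median of -0.12, and the 37 genes from PRTFDC1 inwards had a median of 0.29. The proximal part was thus not level, with its lowest values next to the end of the rise.

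**Figure D4:**
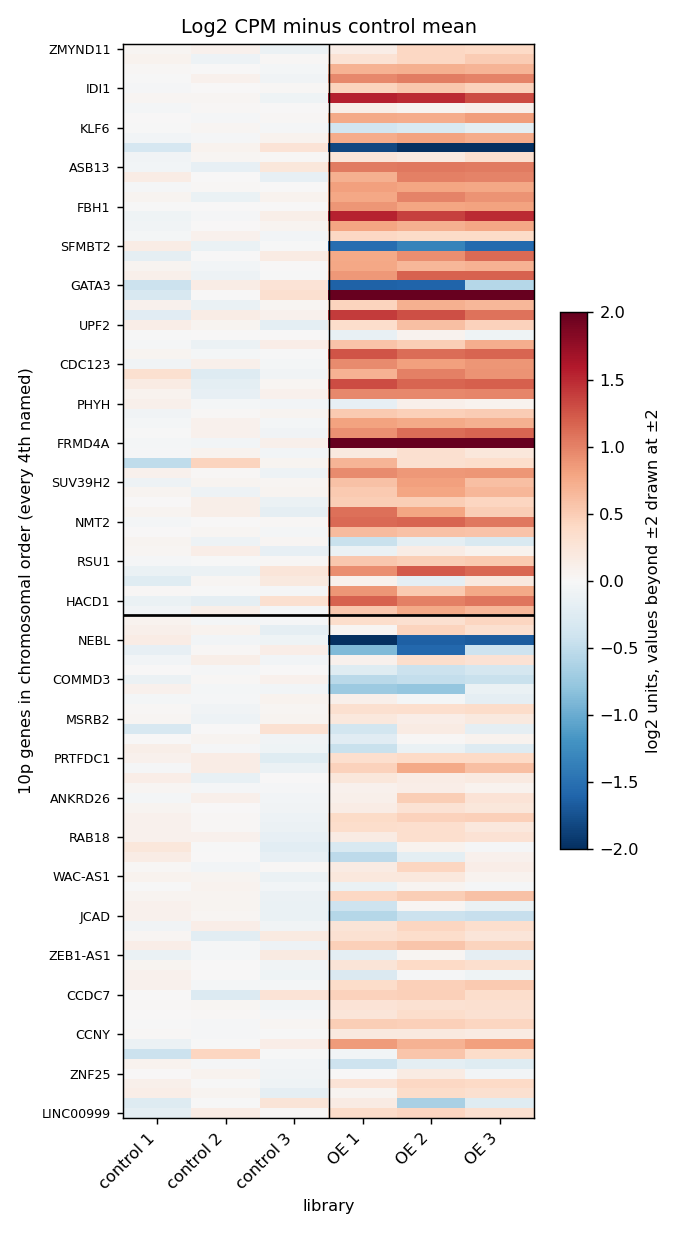
Each row is 1 of the 109 genes of 10p in chromosomal order from the tip (top), each column a library, and colour gives log2 CPM minus the mean of the controls (values beyond 2 are drawn at 2). Above the black line are the 58 distal genes, of which 52 have a positive log2 fold change, and below it the 51 proximal genes, of which 33 do.

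The distal genes are described next by the lists they fall into, which were made by hand, so that some genes could stand in another list. Counts in a list are to be read beside the 81.0% of all distal genes that were higher and the 63.8% that were called higher (28.3% and 8.28% of all genes), and no list was tested against the other genes. Genes for RNA processing, translation and DNA replication had 10 distal members of the list, and all 10 were higher at the adjusted p and 9 were called higher, with a median log2 fold change of 0.86. GTPBP4, a nucleolar GTPase of ribosome assembly, had 567, 594 and 507 reads in the control libraries against 1022, 1261 and 1273 in the overexpressing ones. Its level went from 45.2 ± 2.41 to 90.1 ± 1.75 CPM (mean ± SD, n = 3 per group), which is 0.99 on the log2 scale with a standard error of 0.06. The 3 overexpressing libraries were close to each other and far above the controls. PRPF18, a splicing factor, had 115, 122 and 104 counts against 204, 277 and 296 (log2 fold change 1.09, standard error 0.10). UPF2, a factor of nonsense-mediated decay and the smallest rise of this list on the distal side, had 562, 531 and 424 counts against 603, 854 and 791 (log2 fold change 0.47, standard error 0.09), under the fold change threshold. Between these lay MCM10, a replication initiation factor (0.97), ANKRD16 (0.92), CDC123, an assembly factor of the initiation factor eIF2 (0.89), the helicase FBH1 (0.83), the RNase P subunit RPP38 (0.81), the splicing factor RBM17 (0.76) and the DNA repair nuclease DCLRE1C (0.67).

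Of the 5 distal members of the membrane traffic and cytoskeleton list, all were higher and 4 were called higher. GDI2, which recycles Rab GTPases between membranes, had 1347, 1371 and 1288 reads in the control libraries against 2225, 2583 and 2613 in the overexpressing ones, from 109 ± 1.55 to 188 ± 3.55 CPM (mean ± SD, n = 3 per group), which is 0.79 on the log2 scale with a standard error of 0.05. WDR37 had 127, 125 and 109 counts against 337, 380 and 343 (log2 fold change 1.46, standard error 0.10), and OPTN, an autophagy receptor that binds ubiquitin, had 230, 178 and 198 against 469, 507 and 529 (log2 fold change 1.22, standard error 0.09). In each of these genes the groups were well apart. NET1, an exchange factor for RhoA, rose least (log2 fold change 0.25, standard error 0.06). ASB13, a substrate adaptor of ubiquitin ligases, had a log2 fold change of 1.05, and USP6NL, which acts on Rab GTPases, of 0.62.

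Of the 11 distal members of the list of metabolic enzymes, 7 were higher, 4 of them called, and 4 did not pass the test, with a median log2 fold change of 0.49. NUDT5, a hydrolase of ADP-ribose, had 436, 402 and 392 reads in the control libraries against 927, 1000 and 1060 in the overexpressing ones, from 33.4 ± 1.19 to 76.0 ± 3.73 CPM (mean ± SD, n = 3 per group), which is 1.19 on the log2 scale with a standard error of 0.06. NMT2, which adds myristate to proteins, had 458, 465 and 448 counts against 948, 1145 and 1087 (log2 fold change 1.12, standard error 0.06). In both genes the overexpressing libraries lay far above the controls. The gamma subunit of ATP synthase, ATP5F1C, had a log2 fold change of 0.71, and PITRM1, a protease from the list of mitochondrial proteins, of 0.78. PFKFB3, which sets the level of an activator of glycolysis, had 841, 907 and 785 counts against 1062, 1225 and 1257, a smaller rise of 0.39 (standard error 0.06). The log2 fold changes of PFKP, a phosphofructokinase (0.09), PTER (0.03), PHYH of peroxisomal lipid breakdown (0.01) and DHTKD1 of lysine breakdown (-0.05) were near 0.

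The largest distal rises stood far above their neighbours. SFTA1P, a transcribed pseudogene at 10784439 to 10794914, had 2, 3 and 4 reads in the control libraries against 217, 217 and 206 in the overexpressing ones. The ratio of its summed counts, 640 against 9, was 66.5 after scaling, with an exact 95% interval for counting error of 34.8 to 146. FRMD4A had 46, 45 and 48 counts in controls and 323, 312 and 334 with overexpression, from 3.78 ± 0.247 to 24.8 ± 2.77 CPM (mean ± SD, n = 3 per group), which is 2.71 on the log2 scale with a standard error of 0.12. Both were thus low in every control and clearly expressed in every overexpressing library. IL15RA, the alpha chain of the interleukin receptor for IL15, had 21, 22 and 23 counts against 64, 67 and 75 (log2 fold change 1.54, standard error 0.17). PROSER2 had 50, 65 and 59 against 147, 160 and 143 (log2 fold change 1.28, standard error 0.14).

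Of the 58 distal genes, 5 were lower at the adjusted p, where 29.3% of all genes were, and 6 passed in neither direction. AKR1C3 was the only member of the AKR1C steroid reductase list with a row, and it had 37, 49 and 54 reads in the control libraries against 11, 8 and 9 in the overexpressing ones, a log2 fold change of -2.40 (standard error 0.27). SFMBT2, a Polycomb-associated protein, had 150, 121 and 126 counts against 42, 57 and 50 (log2 fold change -1.51, standard error 0.14). The transcription factor GATA3 was low in every library, with 15, 23 and 24 counts against 5, 6 and 15 (log2 fold change -1.34, standard error 0.36), and its highest overexpressing library had as many reads as the lowest control. Without overexpressing library 3 its log2 fold change was -1.93, and over all libraries left out in turn it ran from -1.93 to -1.10. AKR1C3, SFMBT2 and GATA3 were the distal genes called lower. KLF6, a zinc finger transcription factor, had 1223, 1252 and 1132 counts against 867, 1084 and 1202, from 97.8 ± 2.46 to 79.7 ± 5.18 CPM (mean ± SD, n = 3 per group), a fall of -0.29 (standard error 0.06) under the fold change threshold. MINDY3, a deubiquitinase near the end of the rise, fell by 0.31 on the log2 scale. CDNF (0.45) and TRDMT1 (0.04), both of low level, passed in neither direction, like the 4 metabolic enzymes named above. AKR1C3, SFMBT2, GATA3 and KLF6 each lay between genes that rose.

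Of the 10 distal members of the transcription and chromatin list, 6 were higher, 5 of them called, and 3 were lower, 2 of them called. TAF3, a subunit of the basal factor TFIID, had 159, 137 and 139 counts against 250, 371 and 380 (log2 fold change 1.10, standard error 0.11), and the histone methyltransferase SUV39H2 a log2 fold change of 0.69. The median log2 fold change of the list was 0.50 over its distal members and 0.14 over its 12 proximal members, none of which was called in either direction.

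**Figure D5:**
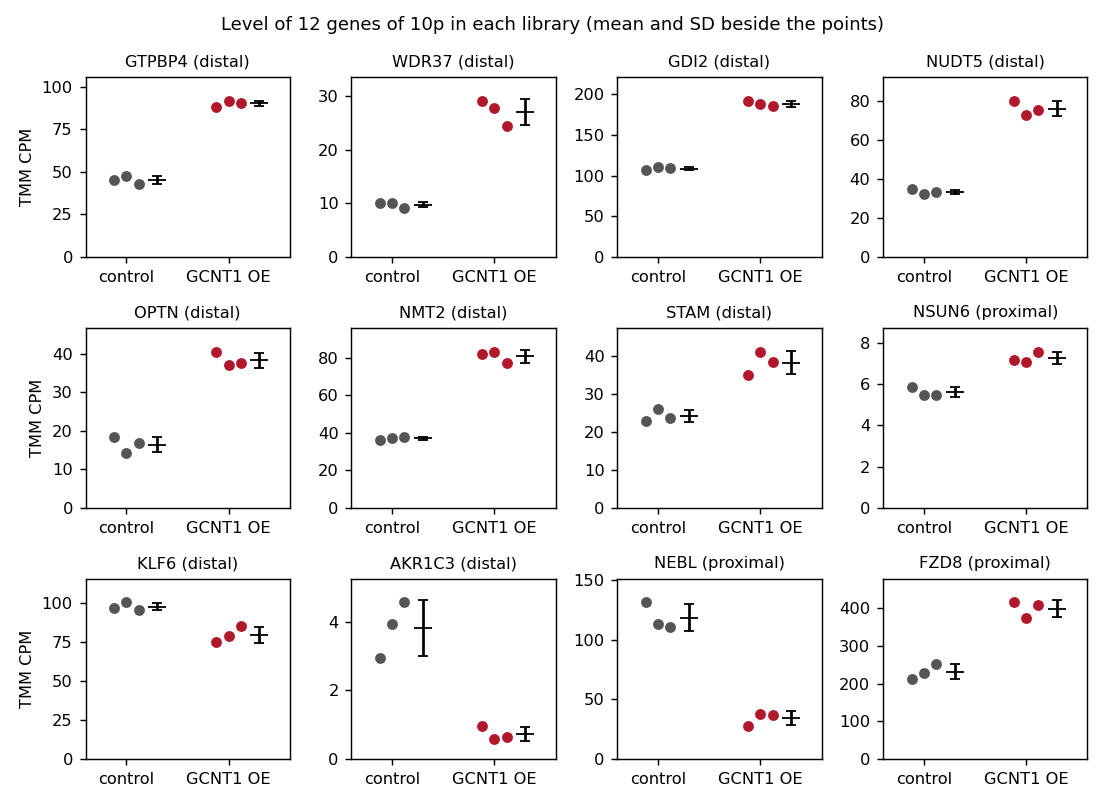
Each panel shows 1 gene, with the TMM-normalised CPM (y axis, from 0) of the 3 control (grey) and 3 GCNT1 overexpressing libraries (red) and, beside them, the mean with its SD. GTPBP4, WDR37, GDI2, NUDT5, OPTN, NMT2 and STAM, all distal, rise clear of the controls. NSUN6 also lies above its controls, by 0.37 on the log2 scale, and KLF6, AKR1C3 and NEBL are lower.

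Towards the end the rise was already broken. After FAM171A1 (0.60) came MINDY3 (-0.31), PTER (0.03), RSU1 (0.52), CUBN (1.21) and TRDMT1 (0.04), in log2 fold changes, of which RSU1 and CUBN passed as higher and MINDY3 as lower. VIM-AS1, an antisense RNA of VIM, had 32, 31 and 29 counts in controls and 55, 50 and 61 with overexpression (log2 fold change 0.75, standard error 0.17). HACD1, an enzyme of fatty acid elongation, had 25, 24 and 33 against 60, 63 and 68 (log2 fold change 1.12, standard error 0.18). STAM, the last gene before the end, had 288, 325 and 279 against 406, 565 and 543. Its level went from 24.2 ± 1.69 to 38.2 ± 3.03 CPM (mean ± SD, n = 3 per group), which is 0.66 on the log2 scale with a standard error of 0.08. In these 3 genes all overexpressing libraries were above all controls. NSUN6, a cytosine methyltransferase of tRNA, had 74, 68 and 65 against 83, 97 and 107 (log2 fold change 0.37, standard error 0.12). In NSUN6 too all overexpressing libraries were above all controls, and it passed as higher under the fold change threshold. NEBL, an actin-binding protein, had 1654, 1410 and 1312 against 318, 520 and 522, a fall of -1.79 (standard error 0.10). VIM lies on the other strand from VIM-AS1, and without knowledge of the strand setting the reads of both cannot be told apart.

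Beyond the end, the Polycomb gene BMI1 had 40, 36 and 34 counts in controls and 20, 23 and 38 with overexpression (log2 fold change -0.54, standard error 0.22). Its adjusted p of 0.048 was above 0.05 with library size alone (0.074), in DESeq2 (0.14) and in 5 of the 6 fits that left out 1 library (0.072 to 0.18). Its neighbours COMMD3 and DNAJC1 fell under the fold change threshold (log2 fold changes of -0.49 and -0.35). MIR1915HG, with 30, 34 and 35 counts against 16, 11 and 28, and NEBL were the 2 proximal genes called lower. The 2 called higher were FZD8 and THNSL1, and the count fell to 1, by the loss of THNSL1, without overexpressing library 2 or without control library 3. FZD8, a Wnt receptor and one of the most abundant genes of the arm, had 2684, 2845 and 2982 counts against 4808, 5135 and 5755, from 231 ± 19.6 to 399 ± 22.2 CPM (mean ± SD, n = 3 per group), which is 0.79 on the log2 scale with a standard error of 0.06. It stood above its neighbours, since the other abundant genes around it, CUL2, the scaffold of a ubiquitin ligase (0.30), and CCNY, a cyclin of the membrane (0.18), rose by less. KIF5B, which drives transport along microtubules, had 3959, 3701 and 3287 counts against 2796, 4002 and 3929 (log2 fold change -0.13, standard error 0.07), with overlapping groups. ZNF248 had 3641, 3383 and 3130 against 2385, 3302 and 3273, a fall of -0.28 (standard error 0.06).

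No stretch ended at the start limit. The last 3 genes below it, ZNF37A, HSD17B7P2 and LINC00999, had log2 fold changes of 0.25, -0.26 and 0.38. The first 3 genes above it, LOC441666, LINC00839 and ZNF37BP on 10q, had 0.86, 0.29 and 0.22. HSD17B7P2, with 12 to 21 reads a library, passed in neither direction. With each library left out in turn its log2 fold change ran from -0.49 to -0.06, and that of ZNF37A from 0.17 to 0.34. The 3-stretch split of the chromosome ended its second stretch after ZNF37BP, at 54 genes and a median of 0.25, and further changes on 10q lowered the summed distance by little, from 188.6 to 185.5 log2 units with 4 stretches. The split into 4 set off 14 genes from ZNF239 to NCOA4 with a median of -0.38.

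Across the 58 distal genes, which share the same 6 libraries and are not independent, Spearman's rho of the log2 fold change was -0.12 with mean CPM and -0.10 with the length of the gene. The median was 0.81 in the 29 less abundant genes and 0.66 in the 29 more abundant ones. Distal genes had a lower median level than all genes in controls (18.4 against 32.5 CPM) and also with overexpression (27.0 against 32.6 CPM). Of 88 protein-coding genes that RefSeq places on this stretch, 56 (63.6%) had a row, VIM included, a share like that of the proximal part (62.2%) and of 10q (61.9%), and the others were not analysed here.

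Whether counting used strand is not known, and 31 of the 58 distal genes overlap an annotated gene on the opposite strand, among them the pairs NUDT5 and SEC61A2, PRPF18 and FRMD4A, NMT2 and RPP38, and SUV39H2 and DCLRE1C. In the 22 distal genes with no overlap on either strand, 16 were higher at the adjusted p (28.3% of all genes), 11 were called higher (8.28% of all genes), and the median log2 fold change was 0.60. Of the 16 proximal genes with no overlap 8 were higher and 0 were called higher, with a median of 0.28. The medians over all genes of a chromosome ran from -0.29 (chromosome 5) to 0.28 (chromosome 21), with 0.10 for chromosome 10 as a whole. Each is a median over more genes than the 58 distal ones, and stretches of like size on other chromosomes were not examined.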

How the data were processed

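Stranded mRNA libraries of 3 control and 3 GCNT1 overexpressing PC3 lines were read from one end over 75 bp. Galaxy 22.01 was used by the authors for trimming (Cutadapt), alignment to hg38 (HISAT2) and gene quantification (featureCounts), and the values deposited are raw read counts per gene without normalization. The rule for low counts, the gene annotation and the use of strand in counting were not given in the sources used here.

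Groups and replicate numbers came from the sample labels. Entrez identifiers were placed on GRCh38.p14 with RefSeq, which gave a symbol to 12661 and a chromosome to 12643 of 12703 rows. Counts were compared in R 4.3.3 with edgeR 4.0.16 (filterByExpr, which removed no gene, TMM factors, quasi-likelihood test, Benjamini-Hochberg adjustment over all genes). Calls used the study's thresholds, an adjusted p of 0.05 and a log2 fold change of 0.58. Log2 fold changes of chromosome 10 genes, in order of gene start, were split into stretches of at least 10 genes with the least summed absolute deviation from stretch medians, in Python 3.11.15. Overlaps used GENCODE 44. The tests were tried on simulated counts, and the split on a single simulated step that had no smaller rise beyond it. The alternatives were limma-voom (limma 3.58.1), DESeq2 1.42.0, other scaling and filters, the replicate block, single libraries left out, and other costs and orders for the split.

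The genes and the lists were chosen with earlier results of these data known. Genes named are the highest, lowest and most abundant members, those beside the end of the rise and the start limit, list examples and well-known genes of the arm. Of the other genes named, some were picked after their values were seen.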

Additional observations from a re-analysis of the deposited data

How the results depend on the processing

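The groups share the replicate numbers 1 to 3, but the deviations of same-numbered libraries did not run together (correlations across genes of -0.27, 0.00 and -0.11), so the numbers were not read as pairs. With the replicate block 37 distal genes were called higher and the end of the rise remained at 17.6 Mb. Counts and medians on each side of the end were taken after the data were seen. Over all alternatives 37 to 39 of the 109 genes, 35 to 37 distal genes and 26 to 36 genes of 10q were called higher.

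With library size in place of TMM, which moved the median of all genes to 0.06, the median log2 fold change was 0.43 over 10p, 0.79 over distal genes, 0.31 over proximal genes and 0.12 over 10q. That scaling called 1283 genes higher and 1230 lower, where TMM called 1052 and 1405, while 39 genes of 10p were called higher and 5 lower under both. The end of the rise was at 18.5 Mb with squared deviations and in 2 of the 9 pairs, at 18.7 Mb in 2 more pairs, and at 15.2 Mb with genes of at least 5 CPM. With each library left out in turn it ran from 17.6 to 18.5 Mb (later without control replicate 1), the median over 10q from 0.0406 to 0.0575, that over proximal genes from 0.19 to 0.27, and the proximal genes called higher from 1 to 2. The call of THNSL1 was lost without GCNT1 OE replicate 2 and without control replicate 3. BMI1 passed the fold change threshold and the adjusted p only without GCNT1 OE replicate 3 (-0.81), and its adjusted p of 0.048 rose to 0.065 with the block and 0.14 in DESeq2. The cause of these shifts was not tested. Depth limits the genes of low level, such as GATA3 with 5 to 24 reads a library.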
